A study of Mus musculus with 5 samples.

Results

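Microglia are the resident macrophages of the retina, and most of them in a healthy retina show little major histocompatibility complex (MHC) class II, the surface proteins that present antigen to CD4+ T cells. The cells described here are the microglia with low MHC class II found among FACS-sorted tdTomato+ cells of the adult mouse retina. They were chosen by their own unique molecular identifier (UMI) counts. A cell barcode was a member when it had at least 1000 UMIs and at most 15% of them from mitochondrial genes, when Ctss, C1qa, C1qb, C1qc, Tyrobp and Fcer1g summed to at least 0.3% of its UMIs and to more than the Müller glia (MG) genes Glul, Rlbp1, Slc1a3, Clu and Aqp4, and when Cd74, H2-Aa, H2-Ab1 and H2-Eb1 summed to less than 0.5%. Of 10751 barcodes within the UMI and mitochondrial limits in 4 captures, 461 were members.

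All 4 captures came from Glast-CreERT2; Rosa26-Ai65 mice on a C57BL/6J background, aged 12 to 20 weeks, with males and females pooled. Mice had received tamoxifen and an intravitreal ShH10 adeno-associated virus (AAV) that expresses FlpO with either mKate2, a fluorescent control protein, or Yap5SA, an active form of the growth regulator YAP, from the GFAP promoter. Glast-CreERT2 and the GFAP promoter are active in MG and astrocytes, and the Ai65 reporter makes tdTomato only after both recombinases have acted. The paper gives a higher titre in genome copies for the mKate2 AAV than for the Yap5SA AAV, at the same injected volume. Vector dose thus differed together with the expressed protein, and its part in any difference between AAVs was not tested. Retinas were taken at 56 days, 16 of them pooled for mKate2 AAV and 21 for Yap5SA AAV. No label ties a capture to separate animals, so any p-value across captures measures the spread between captures only.

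Replicates 1 and 2 of mKate2 AAV and replicates 1 and 3 of Yap5SA AAV were used, and lists of 4 values run in that order. Yap5SA AAV replicate 2 was set aside because it shared 1361 barcodes (99.8%) with replicate 1, 22 members among them, and thus read the same cells. No member barcode was shared between the 4 captures. The members numbered 12, 393, 23 and 33, so that 85.2% of them and 77.9% of their UMIs came from mKate2 AAV replicate 2. Their median UMI counts were 6897, 4114, 9564 and 5189, and their summed counts were 134891, 2288782, 231075 and 281932. The file headers name Cell Ranger 8.0.0 for the first capture of each AAV and 9.0.1 for mKate2 AAV replicate 2 and Yap5SA AAV replicate 3, and this processing batch holds 1 capture of each AAV. The 9.0.1 captures also held 546 and 520 rod-like barcodes by marker sums, against 7 and 1 in the others.

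**Figure D1:**
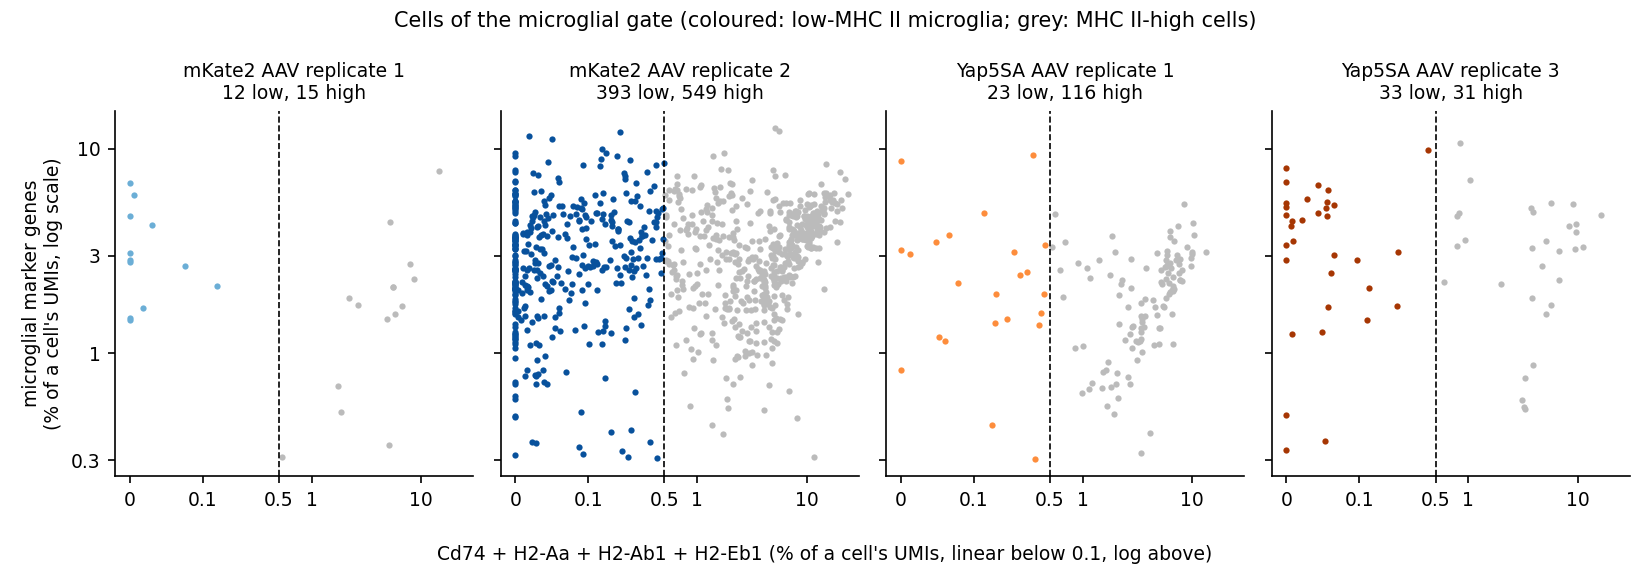
Every barcode that passed the microglial marker limits, by capture, with its share of UMIs from 4 MHC class II genes (x axis, percent, linear below 0.1 and logarithmic above) and from the 6 microglial marker genes (y axis, percent, log scale). Coloured points are the low-MHC II members (12, 393, 23 and 33), grey points the MHC II-high cells (15, 549, 116 and 31), and the dashed line is the 0.5% limit, across which mKate2 AAV replicate 2 has cells without a gap.

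The 0.5% limit cut a continuous range and did not fall in a gap. In the 4 captures, 20 members had between 0.4% and 0.5% of their UMIs from the 4 MHC class II genes (0.412% to 0.492%), and 19 cells of the same gate lay just outside (0.506% to 0.597%). Many members had no UMI of the 4 genes at all, namely 7 of 12, 110 of 393, 3 of 23 and 9 of 33. At the marker limit, 12 members lay between 0.303% and 0.373%, and 7 barcodes that were not members lay between 0.214% and 0.283%. At the UMI limit, 12 members had 1000 to 1084 UMIs and 11 barcodes left out for depth had 911 to 988.

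Microglia depend on signals from their niche. CSF1R, the receptor for CSF1 and IL-34, keeps them alive, TGF-β signalling sustains their specific gene program through factors such as SALL1, and the purine receptor P2RY12 and the fractalkine receptor CX3CR1 sense nearby neurons. They prune and clear material with complement, in which C1q starts the classical pathway, and with Fc receptors that signal through the adaptor FCER1G. In degenerating tissue microglia can lower this homeostatic program and raise a disease-associated one that includes Apoe, Trem2, Spp1 and Gpnmb.

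Both sets of genes that chose the cells act as groups, and the sequences before their start sites are shown to make those groups concrete. The 3 C1q genes lie side by side on chromosome 4 (GRCm39; C1qa 136623223 to 136626161, C1qc 136616466 to 136620376, C1qb 136606009 to 136613511, all on the minus strand). RefSeq promoters on GRCm38.p6 matched 8 of the 12 genes looked up, C1qb and C1qc among them. The 250 bases before the start are shown 5′ to 3′, and capitals mark GAGGAA or its reverse complement TTCCTC, the core that the myeloid factor PU.1 is known to bind. The windows are chr4:136886201-136886450 for C1qb and chr4:136892915-136893164 for C1qc, both on the minus strand.
C1qb: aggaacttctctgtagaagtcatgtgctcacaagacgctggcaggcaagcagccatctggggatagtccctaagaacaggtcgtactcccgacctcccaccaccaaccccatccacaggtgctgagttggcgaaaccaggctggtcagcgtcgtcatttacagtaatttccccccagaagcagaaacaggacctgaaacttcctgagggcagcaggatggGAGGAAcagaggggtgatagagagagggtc
C1qc: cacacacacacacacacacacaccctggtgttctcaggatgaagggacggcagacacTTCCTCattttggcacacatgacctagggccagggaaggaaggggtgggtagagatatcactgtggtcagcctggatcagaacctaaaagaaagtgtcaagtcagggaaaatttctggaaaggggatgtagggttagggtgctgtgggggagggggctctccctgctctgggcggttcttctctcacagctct
The match began 30 bases before the start in C1qb and 193 bases before it in C1qc. These 6 letters are common, being present in 23.25% of the 32851 promoter windows of this length (both strands), and 5 of the 8 windows found held them.

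For the MHC class II genes, capitals mark TGATTGG or CCAATCA, the Y box at which the factor NF-Y is known to bind beside the class II X box. H2-Aa (chr17:34287824-34288073, minus strand) and H2-Eb1 (chr17:34305617-34305866, plus strand) were in the rule, and H2-DMb1 (chr17:34152941-34153190, plus strand), a chain of the protein that loads peptide onto class II, was not.
H2-Aa: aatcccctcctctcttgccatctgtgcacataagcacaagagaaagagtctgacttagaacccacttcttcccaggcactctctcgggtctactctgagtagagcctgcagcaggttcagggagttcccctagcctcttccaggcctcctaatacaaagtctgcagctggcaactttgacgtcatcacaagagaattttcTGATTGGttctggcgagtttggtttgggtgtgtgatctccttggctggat
H2-Eb1: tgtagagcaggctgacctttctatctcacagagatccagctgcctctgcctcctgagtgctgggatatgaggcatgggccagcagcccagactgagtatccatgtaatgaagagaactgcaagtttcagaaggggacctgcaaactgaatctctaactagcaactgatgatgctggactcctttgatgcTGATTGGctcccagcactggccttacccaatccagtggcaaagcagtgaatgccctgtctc
H2-DMb1: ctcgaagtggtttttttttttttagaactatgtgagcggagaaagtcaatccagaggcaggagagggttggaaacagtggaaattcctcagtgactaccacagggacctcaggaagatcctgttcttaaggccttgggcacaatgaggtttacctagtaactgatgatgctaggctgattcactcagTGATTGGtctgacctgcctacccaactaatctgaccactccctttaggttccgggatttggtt
The match began 50, 61 and 63 bases before the start, respectively. It was present in 7.23% of all windows and in none of the other 5 found for these genes. A match is a description of letters and was not tested as a binding site.

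The members carried a microglial profile beyond the genes that chose them. Levels are given as CPM, the UMIs of a gene per 1000000 UMIs summed over the members of a capture, which count 3′ ends and are not scaled to gene length. Ctss, which encodes the lysosomal protease cathepsin S, had 8437, 9751, 7664 and 9673 CPM, and C1qa had 6865, 6358, 5704 and 7456 CPM. Both were in the rule, as were Tyrobp with 3773, 2294, 1609.9 and 2433 CPM and Fcer1g with 3232, 2931, 2272 and 2256 CPM. Aif1, which encodes the microglial marker IBA1 and was not in the rule, had 1231, 1489, 1047 and 961 CPM. In MG of the same captures Aif1 had 1.99, 6.31, 3.57 and 0.151 CPM, so that no capture came near the members.

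Homeostatic genes told the cells apart from MG in the same way. P2ry12 had 252, 225, 489 and 571 CPM in the members and 9.96, 7.65, 12.1 and 8.46 CPM in MG. Tmem119, a membrane protein used as a microglial marker, had 133, 132, 160.1 and 199 CPM against at most 0.319 CPM in MG. Sall1, the transcription factor that maintains microglial identity, was low but present in each capture, with 66.7, 32.8, 69.2 and 24.8 CPM, and its highest level in MG was 0.255 CPM. The fractalkine receptor gene Cx3cr1 had 771, 533, 809 and 769.7 CPM. Of 14 homeostatic genes, at least 3 had a UMI in 417 of 461 members (90.5%), in 606 of 711 MHC II-high cells (85.2%) and in 220 of 5349 MG (4.11%). In mKate2 AAV replicate 1 members had the lower share, 10 of 12 against 14 of 15 MHC II-high cells. Median depths there were 6897 and 20167 UMIs. At least 1 of P2ry12, Tmem119, Sall1 and Siglech was seen in 315 of 461 members (68.3%), in 392 of 711 MHC II-high cells (55.1%) and in 275 of 5349 MG (5.14%). Without mKate2 AAV replicate 2 the share of members was 55 of 68 (80.9%). All of these shares are unthinned, and the part of depth in them was not tested.

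The share of cells with a UMI depends on depth, so shares were also taken after each cell was thinned to 2000 UMIs. This evens depth but does not remove free RNA in the droplets, which was not measured. Thinning kept 9, 338, 18 and 29 members and left out 3, 55, 5 and 4. The P2ry12 transcript was then found in 33.3%, 27.5%, 38.9% and 37.9% of members (66.7%, 47.8%, 60.9% and 63.6% without thinning) and in 1.80%, 1.09%, 2.68% and 0.878% of MG at the same depth. Rods of mKate2 AAV replicate 2 held it in 0.190% at that depth.

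**Figure D2:**
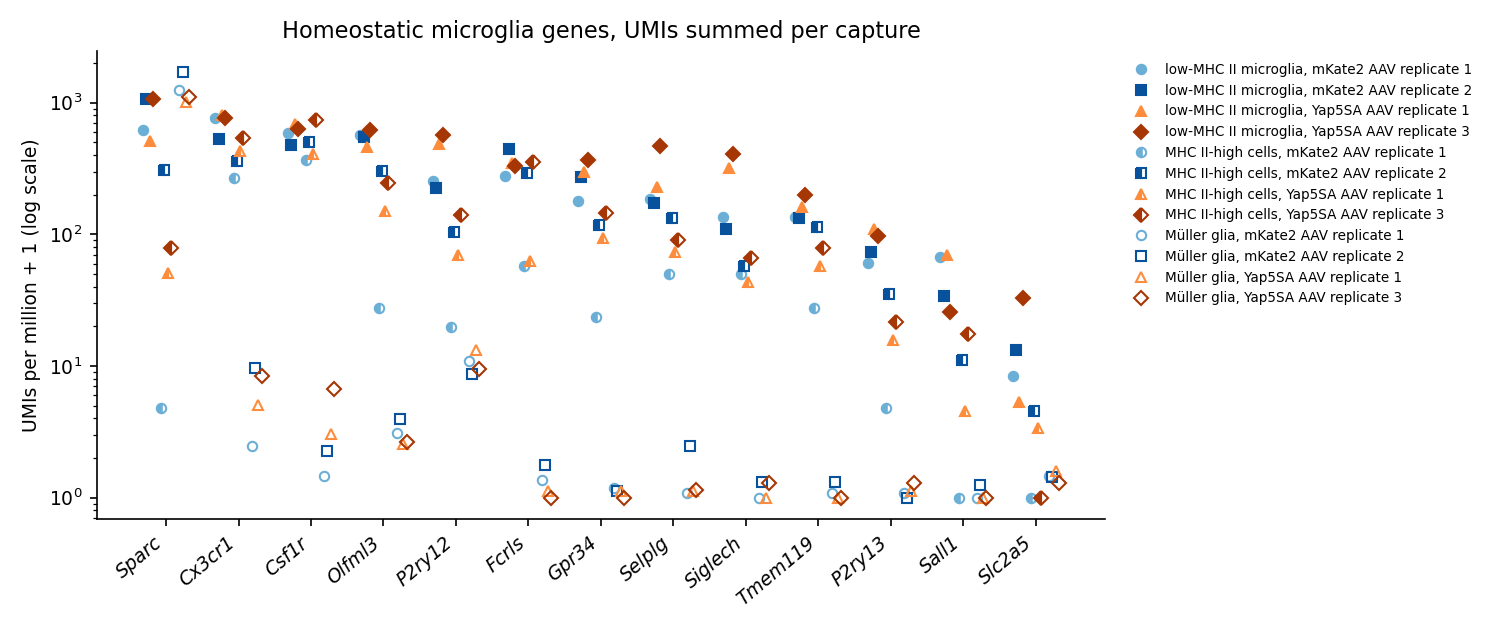
Homeostatic microglia genes (13 plotted) by capture, in CPM + 1 (y axis, log scale), for low-MHC II microglia (filled), MHC II-high cells (half-filled) and Müller glia (open). P2ry12 lies between 225 and 571 in the members, between 18.9 and 139 in MHC II-high cells and between 7.65 and 12.1 in MG, and Sparc is the gene whose MG levels lie above its levels in the members in every capture.

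Sparc, a matrix protein gene that MG also express, was lower in the members than in MG in all 4 captures. Most homeostatic genes were too low in MG to be counted on both sides, since only genes with at least 20 CPM in both cell sets in every capture were counted. Of the 3234 genes that reached this level, 23.4% were higher in the members in all 4 captures and 28.7% were lower, with a median log2 ratio of -0.07. Among 17 phagocytosis and lysosome genes so counted, 15 were higher and 0 were lower. The 10 genes with the largest lowest-of-4 ratio, taken from those with at least 20 CPM in the members, were Ctss, C1qa, C1qc, C1qb, Ly86, Fcer1g, Tyrobp, Laptm5, Trem2 and Aif1. Ly86 encodes MD-1, a partner of a Toll-like receptor relative, and had 2928, 1982, 2441 and 2245 CPM in members and 3.71, 4.40, 9.76 and 0.604 CPM in MG. Laptm5, a lysosomal membrane protein gene of blood cells, had 919, 1292, 900.1 and 1412 CPM against at most 3.76 CPM. The rule used this contrast, so these ratios are given as a description with no test.

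Lineage and receptor genes were present at moderate levels. Spi1, which encodes PU.1, had 363, 452, 316 and 486 CPM and was seen in 73.8% of members, and in MG it was at or below 1.55 CPM. Mef2a, a MEF2 family transcription factor gene, had 534, 414, 723 and 972 CPM. Csf1r had 586, 478, 684 and 635 CPM, and Tgfbr1, a TGF-β receptor chain, had 719, 291, 558 and 582 CPM. Of the ligands, Tgfb1 had 133, 177, 164 and 255 CPM in the members. Il34 had no UMI in any member, and MG had 0.815 to 4.40 CPM of it.

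Clearance genes were abundant. The 22 phagocytosis and lysosome genes summed to 27563, 29218, 22746 and 32763 CPM, against 2496 to 2848 CPM in MG. Ctsd, cathepsin D, had 2187, 2390.3, 1285 and 3834 CPM, and Ctsb, cathepsin B, had 1542, 2919.9, 1852 and 3494 CPM. Of the complement genes, C1qb and C1qc were in the rule like C1qa. C1qb had 5827, 5252, 4241 and 5945 CPM and C1qc 4329, 4387, 3462 and 4299 CPM. C3, which encodes the central complement protein, was sparse, with no UMI in mKate2 AAV replicate 1 and 45.9, 151 and 24.8 CPM in the others.

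Several disease-associated genes stood beside the homeostatic ones. Apoe, the lipid carrier and the gene with the most UMIs in the members after mitochondrial and ribosomal protein genes, had 26525, 25476, 19370.4 and 18331 CPM and was seen in 98.7% of members. MG also held much of it, with 6088 to 11281 CPM. Tmsb4x, Cst3, Malat1 and Fth1 followed Apoe by mean CPM. Trem2, a lipid receptor that signals through TYROBP, had 1297, 1016, 835 and 1312 CPM. Spp1, osteopontin, varied far more, with 222, 1365, 143 and 862 CPM, and was seen in 3, 166, 4 and 8 members. That is 181 of 461 (39.3%), or 15 of 68 (22.1%) without mKate2 AAV replicate 2. Gpnmb was seen in 2, 13, 3 and 5 members, 23 of 461 (4.99%) in all and 10 of 68 (14.7%) without that capture. Its level was 66.7, 53.3, 99.5 and 724 CPM. Itgax, the CD11c gene, had only 14.8, 10.5, 21.6 and 14.2 CPM.

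Inflammatory and stress genes were uneven between cells. After thinning to 2000 UMIs, the 12 chemokine genes took a median of 0.25%, 0.3%, 0.375% and 0.35% of a member's UMIs, and a highest cell in each capture of 2.15%, 8.1%, 3.45% and 6.15%. The 22 immediate-early and heat-shock genes had medians of 0.4%, 0.25%, 0.525% and 0.25% and highest cells of 1.3%, 7.05%, 2.5% and 8.65%. The disease-associated list, led by Apoe, ran from 0.1% to 14.1% within mKate2 AAV replicate 2 alone. In each capture the median cell was thus far below the highest one. Ccl4 had 148, 1600.4, 1471 and 3136 CPM, Ccl12 had 1379, 1355, 1562 and 745 CPM, and Ccl3 had 334, 775, 1644 and 2086 CPM. All 3 encode chemokines that attract monocytes or other leukocytes.

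**Figure D3:**
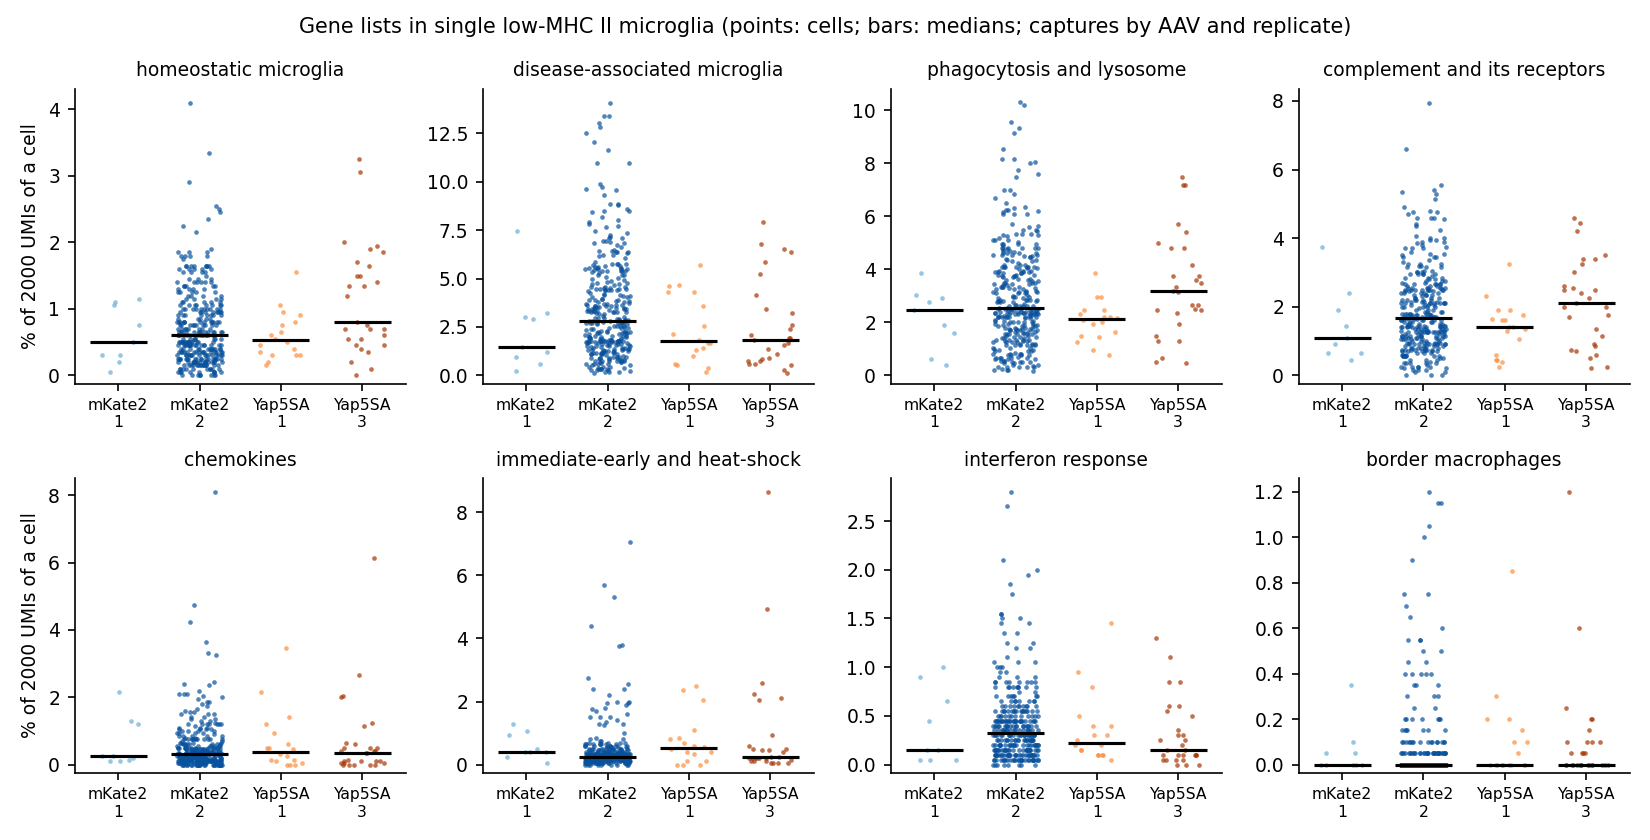
Share of each member's UMIs taken by 8 gene lists after thinning to 2000 UMIs (y axis, percent; 9, 338, 18 and 29 cells), with 1 point per cell and bars at the capture medians. Medians of the homeostatic list lie between 0.5% and 0.8%, and single cells reach 8.1% for chemokines and 8.65% for immediate-early and heat-shock genes.

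Some interferon-induced and MHC class I genes were found in most members. B2m, the shared light chain of class I, was seen in 98.9% of them and had 6242, 6136, 6812 and 5636 CPM, and H2-D1 had 1431, 2036, 1298 and 2022 CPM. Ifi27l2a had 1631, 1070.4, 1021 and 553 CPM and Bst2, tetherin, had 593, 568, 532 and 376 CPM, with Yap5SA AAV replicate 3 lowest for both. Iron storage was led by the ferritin chains, with 7762, 11257, 7128 and 11783 CPM of Fth1 and 4367, 5970.0, 3159 and 6654 CPM of Ftl1.

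Most lists of other cell types were low in the members, with some genes that occurred widely. At least 3 of 12 border macrophage genes had a UMI in 2, 46, 7 and 5 members, 60 of 461 in all, and in 322 of 711 MHC II-high cells (45.3%). The share was highest in Yap5SA AAV replicate 1 (30.4%), and without mKate2 AAV replicate 2 it was 14 of 68 (20.6%). These shares are unthinned, and members of Yap5SA AAV replicate 1 had the highest median depth (9564 UMIs). The part of depth was not tested. The list summed to 699 to 1186 CPM, of which Ms4a7 had 786, 202, 502 and 468 CPM and Mrc1, the mannose receptor, had 14.8, 109, 203 and 128 CPM. Ly6c2 or Ccr2, genes of classical monocytes, was seen in 2, 2, 0 and 0 members. For the counts of 0, exact binomial 95% intervals reach 14.8% with 23 members and 10.6% with 33. In MHC II-high cells the pooled share was 10.3%. One member of mKate2 AAV replicate 1 held all 46 Plac8 UMIs of its capture, and the 764 CPM of Ly6c2 there also came from 1 cell. The monocyte list summed to 2098, 766, 195 and 124 CPM in members and 811, 641, 944 and 250 CPM in MHC II-high cells. At least 3 of 9 T and NK genes were seen in 2 members, both of mKate2 AAV replicate 2. The neutrophil genes Retnlg, Cxcr2 and Camp and the B-cell genes Cd79a and Ms4a1 had no UMI in any member. A few genes of those lists did occur widely, with Ighm (74.1, 169, 69.2 and 156 CPM) in 195 members, Csf3r in 5, 95, 12 and 11 (28 of 68 without mKate2 AAV replicate 2) and the cone-list gene Gngt2 in 283, all 3 named after their values were seen. The cone opsin genes Opn1sw and Opn1mw were at or below 3.55 CPM. At least 3 of 12 rod genes were seen in 0, 16, 0 and 4 members, in the same captures in which 4.07% and 12.1% of members, 4.55% and 9.68% of MHC II-high cells and 7.19% and 31.3% of MG held them. Of 6 MG genes outside the rule with at least 20 CPM in both cell sets, 5 were lower in members than in MG in all 4 captures, and Apoe was higher. With Apoe among them, the 15 MG genes outside the rule summed to 20101 to 27674 CPM in members, against 23837 to 29094 CPM in MG.

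A few members carried the genes of dividing cells. Mki67 and Top2a, both markers of the cell cycle, were seen together in 1, 6, 5 and 1 members. That is 13 of 461 (2.82%) in all, 5 of 23 (21.7%; exact binomial 95% interval 7.46% to 43.7%) in Yap5SA AAV replicate 1, and 1 of 5349 MG. Without mKate2 AAV replicate 2 it was 7 of 68 (10.3%), and without Yap5SA AAV replicate 1 it was 8 of 438 (1.83%). Of the MHC II-high cells, 8 of 711 (1.13%) held both, 5 of them among the 116 of Yap5SA AAV replicate 1 (4.31%). At least 3 of 15 proliferation genes had a UMI in 29.3% of members, 32.6% of MHC II-high cells and 31.0% of MG. Without mKate2 AAV replicate 2 the share of members was 26 of 68 (38.2%). Intervals cover counting error only. These shares are unthinned, and members of Yap5SA AAV replicate 1 had the highest median depth (9564 UMIs). The part of depth in them was not tested. The cells of 1 capture are not replicates, and the other Yap5SA AAV capture had 1 of 33 (3.03%), within the range of the mKate2 AAV captures at 8.33% and 1.53%.

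The reporter transcript was rarely found in the members. The tdTomato entry is in the reference of the 8.0.0 captures only. One of 12 members (8.33%; 0.211% to 38.5%) of mKate2 AAV replicate 1 and 1 of 23 (4.35%; 0.110% to 21.9%) of Yap5SA AAV replicate 1 had a UMI, each with 1. In MG of the same captures the shares were 49.5% and 71.3%, at median depths of 7628 and 13070 UMIs against 6897 and 9564 in the members. After thinning to 2000 UMIs the members had 0 of 9 and 0 of 18, and MG had 23.7% and 29.9%. With a floor of 3 cells for a count of 0, the limits are 33.3% and 16.7% of cells with a UMI at that depth. These set no limit on cells that express the gene. Unthinned, 0 of 15 and 4 of 116 MHC II-high cells held it.

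The MHC II-high cells of the same gate were the nearest comparison, and the members differed from them in more than class II genes. The rule used this contrast as well, so what follows is a description. Counts are over genes with at least 20 CPM in both cell sets in every capture. Of 9 such homeostatic genes, 7 were higher in the members in all 4 captures and 0 were lower, with a median log2 ratio of 1.44. P2ry12 in MHC II-high cells had 18.9, 103, 69.1 and 139 CPM, which put the members 1.09 to 3.43 higher on the log2 scale (CPM + 5). The background was 643 of 3387 genes (19.0%) higher in all 4 captures and 302 (8.92%) lower, with a median log2 ratio of 0.12.

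The 5 genes highest against MHC II-high cells and the 5 lowest were mostly outside the lists. The 5 with the largest lowest-of-4 ratio were Ecscr, Sparc, Crybb1, Golm1 and Rab27a. Sparc had 615, 1068, 511 and 1068 CPM in members and 3.77, 305, 49.6 and 77.9 CPM in MHC II-high cells, a log2 ratio of 1.79 to 6.14. Golm1, a Golgi membrane protein gene, had 126, 114, 129.8 and 135 CPM against 11.3, 33.7, 17.1 and 32.8 CPM, and Crybb1, a crystallin gene, had 44.5, 217, 95.2 and 63.8 CPM against 0, 55.0, 13.6 and 16.4 CPM. In the other direction the 4 genes of the rule came first, and then Mgl2, a lectin gene of macrophages and dendritic cells, with 0, 0.874, 0 and 3.55 CPM in members against 569.6, 123, 488 and 69.7 CPM. H2-DMb1, named here because its promoter is shown and outside the rule of selection, had 111, 71.2, 82.2 and 60.3 CPM in members and 679, 477, 449 and 352 CPM in MHC II-high cells. Its log2 ratio ran from -2.66 to -2.38, so that it was low with its class II partners in every capture.

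The clearance genes were divided between the cell sets. Of 22 phagocytosis and lysosome genes, 12 were higher in the members in all 4 captures and 4 were lower. Ctsd was higher by 1.07 to 4.21 on the log2 scale. Lyz2, the macrophage lysozyme, was lower in all 4 by log2 ratios of -1.90 to -0.01, with 4596, 1798, 2185 and 1983 CPM in members and 4629, 6742, 5677 and 5304 CPM in MHC II-high cells. The disease-associated list was divided too, with 5 of 13 genes higher, Cd9, Ctsl, Spp1, Timp2 and Trem2, and 1 lower, Axl.

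Immediate-early genes ran the other way. Of 22 immediate-early and heat-shock genes, 13 were lower in the members in all 4 captures and 1, Rhob, was higher. Atf3, a stress-induced transcription factor, had 311, 824, 818 and 1458 CPM in members and 2792, 977, 1979 and 3234 CPM in MHC II-high cells. Of 12 NF-kB and cytokine response genes, 6 were lower in all 4 captures and none was higher, and Nfkb1 was among those lower. Of 3 border macrophage genes counted, Ccr1 and Stab1 were lower in all 4. Median depths differed between the cell sets in mKate2 AAV replicate 1, with 6897 UMIs in members and 20167 in MHC II-high cells, and the part of depth and of dissociation stress in these ratios was not tested.

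**Figure D4:**
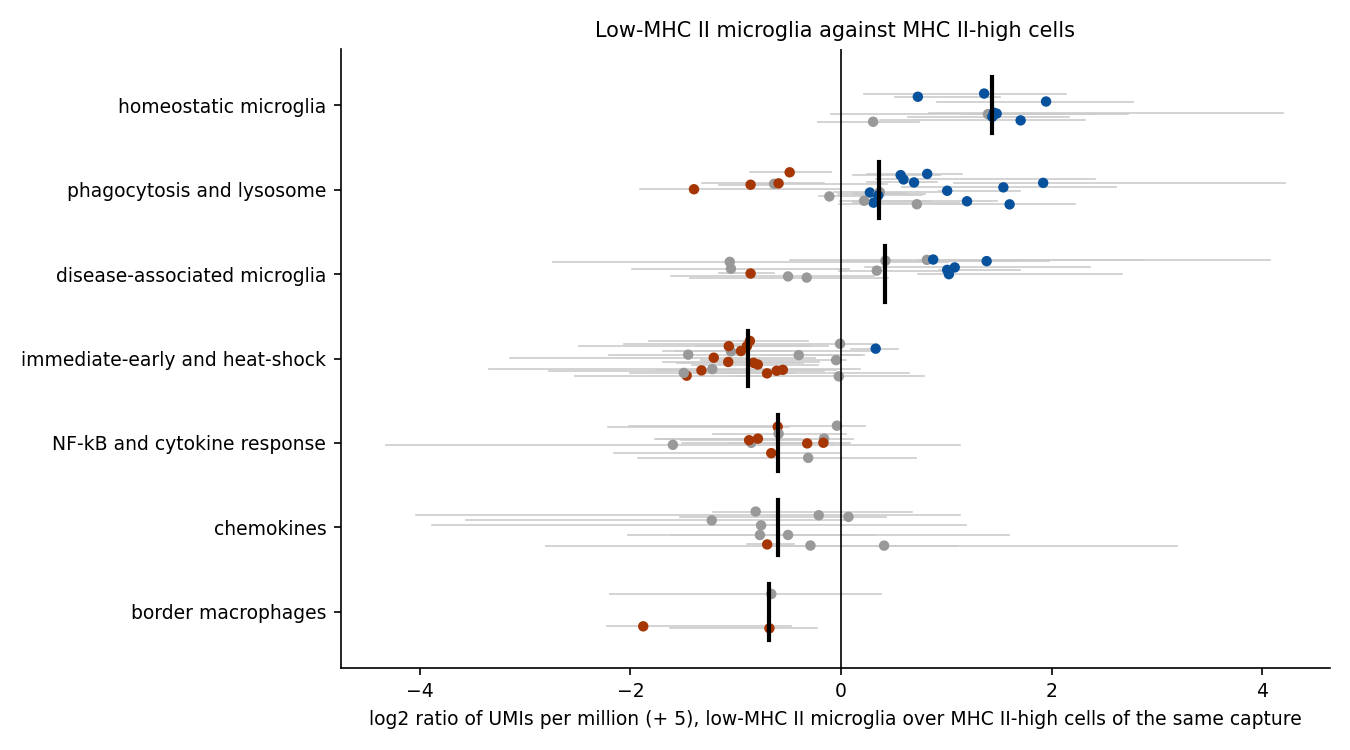
Log2 ratio of CPM (+ 5) in low-MHC II microglia over MHC II-high cells of the same capture (x axis) for genes of 7 lists with at least 20 CPM in both cell sets in every capture. Points are the medians of 4 captures for each gene, grey lines run from the lowest to the highest capture, black bars are list medians, and colours mark genes higher (blue, 7 of 9 homeostatic genes) or lower (brown, 13 of 22 immediate-early and heat-shock genes) in all 4 captures.

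The share of sorted cells that were members did not separate the AAVs. It was 0.716% (12 of 1677), 6.97% (393 of 5637), 2.04% (23 of 1127) and 1.43% (33 of 2310). The mKate2 AAV mean was 3.84% ± 4.42 (SD, n = 2) and the Yap5SA AAV mean was 1.73% ± 0.433 (SD, n = 2), and Yap5SA minus mKate2 AAV came to -2.11 percentage points. A two-sided exact permutation test over captures gave p = 1, and the smallest p that 2 against 2 allows is 0.333. The Yap5SA AAV captures lay between the mKate2 AAV captures, and leaving out mKate2 AAV replicate 2 turned it to 1.02 points. Within the 8.0.0 batch the Yap5SA AAV capture was higher, and within the 9.0.1 batch it was lower. Cells were sorted for tdTomato, whose transcript could be read only in the 8.0.0 captures, where 1 of 12 and 1 of 23 members held it. The share of members may reflect the sort, whose part was not tested.

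As a share of the microglial gate, members made up 44.4% (12 of 27), 41.7% (393 of 942), 16.5% (23 of 139) and 51.6% (33 of 64). The mKate2 AAV mean was 43.1% ± 1.93 (SD, n = 2), the Yap5SA AAV mean was 34.1% ± 24.8 (SD, n = 2), and the difference of -9.03 points had p = 1 in the same exact test. Yap5SA AAV replicate 1 was low and replicate 3 was the highest of all, and leaving out replicate 1 turned the difference to 8.48 points. Within the 8.0.0 batch Yap5SA AAV was lower, and within the 9.0.1 batch it was higher. The microglial gate of Yap5SA AAV replicate 1 had a median MHC class II share of 3.40%, against 1.75%, 1.09% and 0.330% in mKate2 AAV replicates 1 and 2 and Yap5SA AAV replicate 3.

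No gene passed the test between AAVs without a block for the processing batch. Counts were summed over the members of each capture and compared with edgeR's quasi-likelihood test over 4175 genes, of which 0 (0.0%) had a Benjamini-Hochberg adjusted p under 0.05. The lowest adjusted p was 0.288, and 167 genes had an unadjusted p under 0.05. DESeq2 called 5 genes (0.12%), Ifnb1 and Gm56560 as higher and Fn1, S100a6 and Apoc2 as lower, the last named after its values were seen. With the processing batch as a block edgeR called 41 genes, 27 higher and 14 lower, on a single residual degree of freedom. Without mKate2 AAV replicate 1 it called 37, without Yap5SA AAV replicate 1 it called 50, without Yap5SA AAV replicate 3 it called 4, and without mKate2 AAV replicate 2 it called none.

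The 5 genes with the lowest p in each direction did not reach an adjusted p of 0.05 in edgeR without a block and often rested on few cells. With the processing batch as a block all 10 passed, with edgeR adjusted p from 1.7e-11 for Fn1 to 0.0491 for Nsun6, on the single residual degree of freedom. Ifnb1, which encodes interferon-β, had 0, 1, 27 and 18 UMIs in 0, 1, 2 and 2 members, and 1 cell of each Yap5SA AAV capture held 17 and 16 of them. Its captures did not overlap, but its adjusted p was 0.288 and only 5 members held it. Fn1, fibronectin, had 652, 279, 82.2 and 14.2 CPM, a log2 fold change of -3.42 ± 0.75 (SE), with 66 of its 88 UMIs in mKate2 AAV replicate 1 in 1 cell. S100a6, a calcium-binding protein gene, had 96.4, 346, 26.0 and 10.6 CPM, and 241 of its 791 UMIs in mKate2 AAV replicate 2 came from 1 cell. Apoc1, an apolipoprotein gene, had 200.2, 145, 30.3 and 3.55 CPM, in 2, 72, 5 and 1 members. S100a11 had 111, 91.3, 21.6 and 10.6 CPM, and Plac8 had 46, 102, 0 and 0 UMIs from 1, 3, 0 and 0 members. Fn1, S100a6 and Plac8 are also on the monocyte marker list, which summed to 124 to 2098 CPM over the captures, and the part of such cells was not tested. The other 4 genes on the higher side were Gm56560, Gm46224, Gm35417 and Nsun6, an RNA methyltransferase gene with 14.8, 12.7, 108 and 60.3 CPM. Without the block all of these but Ifnb1 had an edgeR adjusted p of 0.901.

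**Figure D5:**
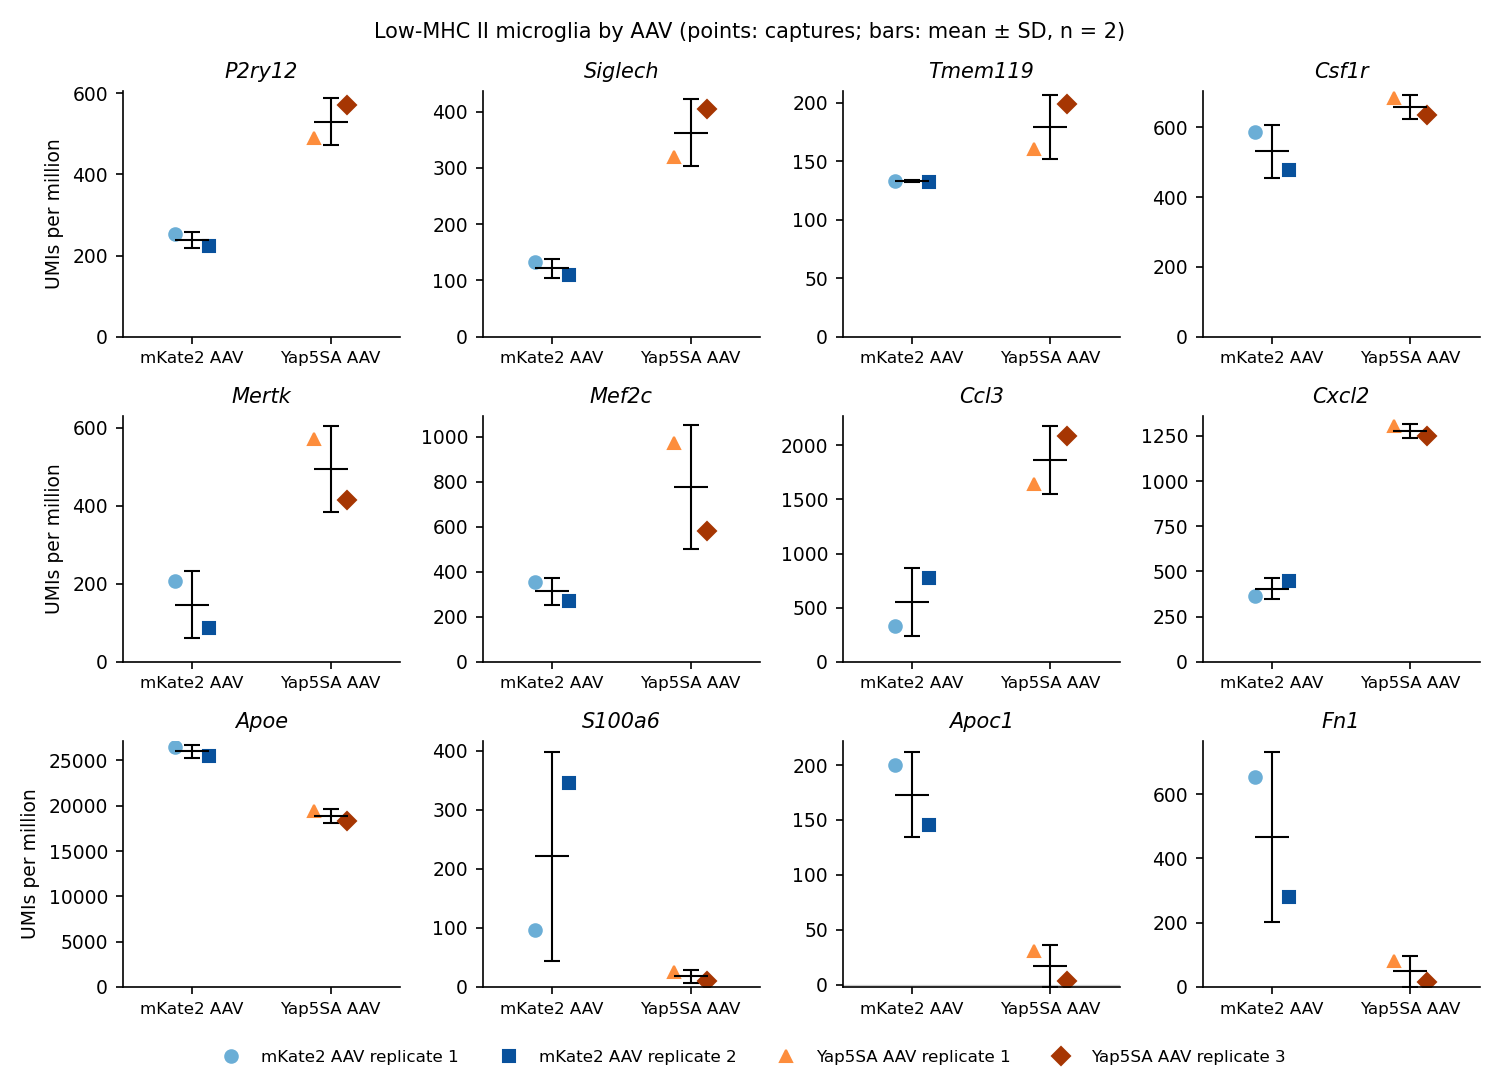
Levels of 12 genes in low-MHC II microglia by AAV, in CPM (y axis, from 0), with 1 point per capture and bars at the mean ± SD (n = 2). The captures of the AAVs do not overlap for any gene shown, which were picked for that after their values were seen, and none passed edgeR's test without the batch block.

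Among the lists, 0 genes were called in any of 14 without a block, and several homeostatic genes had captures that did not overlap. With the processing batch as a block edgeR called 12 listed genes, which were Ccl3, Ccl4, Cxcl10, Cxcl2, Gpnmb, Hspa1a, Hspa1b, Mertk and Siglech as higher and the monocyte-list genes Fn1, Plac8 and S100a6 as lower. Of the 13 homeostatic genes tested, 7 were higher with Yap5SA AAV in both captures than in either mKate2 AAV capture and 0 were lower, against 22.7% and 15.3% of all 4175 genes. These 7 were P2ry12, Siglech, Tmem119, Csf1r, Gpr34, P2ry13 and Selplg, some of them named after their values were seen. P2ry12 (252, 225, 489 and 571 CPM) had a log2 fold change of 1.06 ± 0.43 (SE) and an edgeR adjusted p of 0.901. Siglech, a sialic-acid binding lectin, had 133, 109.7, 320.2 and 404 CPM, a log2 fold change of 1.505 ± 0.45 (SE) and the same adjusted p, which was 0.0150 in edgeR with the block. The list's median log2 fold change was 0.27, against 0.05 over all genes, and it was 0.08 within the 8.0.0 batch and 0.40 within the 9.0.1 batch.

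Genes for clearance and chemokines included large differences that were not called without a block. Mertk, a receptor for the uptake of dying cells, had 208, 85.6, 571 and 415 CPM, a log2 fold change of 1.73 ± 0.53 (SE), with an edgeR adjusted p of 0.00161 with the block. The phagocytosis and lysosome list as a whole had a median of 0.06, so Mertk did not stand for its list. Of its 22 genes tested, 4 were higher and 2 lower without overlap, against 22.7% and 15.3% of all 4175 genes. Ccl3 was higher without overlap, and so were Cxcl2, Ccl7 and Cxcl10, 4 of 11 chemokine genes in all. None of the 11 was lower, beside the same shares over all genes. With the block, edgeR gave Ccl3 an adjusted p of 0.0130, Cxcl2 one of 0.0269 and Cxcl10 one of 0.00239. Cxcl2, a neutrophil attractant, had 363, 448, 1303 and 1249 CPM, a log2 fold change of 1.54 ± 0.41 (SE), but was seen in only 3, 13, 3 and 2 members. In Yap5SA AAV replicate 1, 1 cell held 269 of its 301 UMIs, in replicate 3, 1 cell held 285 of 352, and in mKate2 AAV replicate 2, 1 cell held 774 of 1025. Mertk and Cxcl2 were named after their values were seen.

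In the other direction Apoe had 26525 and 25476 CPM with mKate2 AAV and 19370.4 and 18331 CPM with Yap5SA AAV, which gave a log2 fold change of -0.57 ± 0.31 (SE) with an edgeR adjusted p of 0.901. The disease-associated list had a median of -0.19, which was -0.52 within the 8.0.0 batch and 0.12 within the 9.0.1 batch. Of its 16 genes tested, Axl, Clec7a and Gpnmb were higher and Apoe lower without overlap. Over all 4175 genes 22.7% were higher and 15.3% lower in this way. Interferon response genes had a median of -0.30, and 1.37 and -0.79 within the batches, of opposite sign. Of 13 tested, 0 were higher and 3 lower without overlap (Bst2, Ifi27l2a and Ifitm3), beside the same shares over all genes. Immediate-early and heat-shock genes had a median of 0.63, but 0.07 and 0.79 within the batches. The other lists gave medians between -0.28 for Fc receptors and adaptors and 0.39 for chemokines, whose medians were 1.25 and 0.84 within the batches.

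Some measures of RNA content differed between the AAVs in these captures. Malat1, a nuclear RNA, had 9037, 6233, 20288 and 9662 CPM. Ribosomal protein genes took 20.8%, 17.8%, 12.2% and 15.3% of the UMIs, higher with mKate2 AAV without overlap. Mitochondrial genes took 1.58%, 2.70%, 1.48% and 2.16%, and their captures overlapped. Of all 4175 genes tested, 22.7% were higher and 15.3% were lower with Yap5SA AAV without overlap. Genes that span more than 50000 bases (GENCODE M39, GRCm39) had a median log2 fold change of 0.34 (1475 genes, Yap5SA over mKate2 AAV), and shorter genes had -0.12 (2696 genes). Within the batches the long genes had 0.35 and 0.22 and the shorter ones -0.21 and -0.09. Mertk spans chr2:128540729-128645080 and Siglech chr7:55417926-55429195, on either side of that length. Genes without overlap were not counted by length. The part of RNA content in the differences between AAVs was not tested.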

How the data were processed

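Papain-dissociated retinas were FACS-sorted for tdTomato and captured with 10x Chromium Single Cell 3′ v3.1. Cell Ranger UMI counts for each gene and barcode, as the authors deposited them, came from version 8.0.0 per the labels and 8.0.0 or 9.0.1 per the file headers, on GRCm39, with no normalization, for 5 libraries. Barcodes were taken as deposited, members were found by the stated rule, and no doublet caller was run; the rule drops barcodes with more MG than microglial markers, and leaving out deep or rod-rich members was an alternative. MG for comparison had at least 1% of UMIs in the MG genes of the rule and more than in the microglial or rod genes. Ratios used CPM + 5, with at least 20 CPM in every capture on both sides for counts and on the higher side for ranked genes. Counts were summed per capture and tested with edgeR 4.0.16 (TMM, filterByExpr, quasi-likelihood, no covariate) and, as an alternative, DESeq2 1.42.0. The script was tested on simulated data. With counts drawn at the common dispersion of the data, edgeR called 0 of 200 genes changed 2-fold. It called 42 of 200 changed 4-fold and 143 of 200 changed 8-fold. The absence of calls between AAVs thus does not show that levels were alike. Named genes were those of the rule, those defining a list and the 3 with most UMIs in each, the most abundant 5, the top 10 over MG, the top 5 in each direction against MHC II-high cells and, with fewer than 5 calls, the 5 with the lowest p in each direction between AAVs; other list genes were named after their values were seen. The members, gene lists and tests were chosen with earlier results of these data known. Promoter sequences are from RefSeq on GRCm38.p6. The 5 libraries held 1364 to 7729 barcodes and 12319028 to 50938304 UMIs. Results for a few genes are not reported here.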

Additional observations from a re-analysis of the deposited data

How the results depend on the processing

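No paired analysis was possible because the AAVs share only replicate number 1 among the captures used, and the processing batch, which holds 1 capture of each AAV, was fitted as a block instead. Pooled shares of members without each capture were an alternative chosen after seeing the data and are given beside some of those shares. The count of genes called between AAVs depended on the setting. It was 0 in edgeR and stayed at 0 with other size factors, with Yap5SA AAV replicate 2 for 1, with 5 libraries taken singly and under 6 other limits on cells, was 5 with DESeq2, 44 with no filter on low counts (17531 genes), 41 with the processing batch as a block, and 0 to 50 on leaving out 1 capture. When 1 capture is left alone in its arm, it is assumed to vary like the other arm.

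Leaving out 1 capture moved the difference in the share of sorted cells from -5.24 to 1.02 points and that in the share of the gate from -26.5 to 8.48 points. It moved list medians (log2, Yap5SA over mKate2 AAV) from 0.079 to 0.48 for homeostatic genes, -0.73 to 0.70 for disease-associated genes, -0.26 to 0.15 for complement, -0.73 to -0.31 for Fc receptors, -0.56 to 0.32 for phagocytosis, 0.019 to 0.60 for lineage factors, 0.011 to 0.19 for niche receptors, -0.10 to 1.68 for chemokines, -0.37 to 1.15 for NF-kB genes, -0.62 to 0.97 for interferon genes, -0.22 to 0.36 for MHC class I, -0.40 to 0.98 for immediate-early and heat-shock genes and -0.38 to 0.93 for iron handling.

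Without the MHC class II limit, Gm46224 turned to -0.12. The mean share of members with a UMI moved with depth, for P2ry12 to 59.8% without thinning and 26.2% at 1000 UMIs, for Tmem119 to 45.2% and 10.7%, for Cx3cr1 to 73.5% and 38.5%, and for Aif1 to 58.8% at 1000 UMIs. Beyond these settings' own construction, the cause was not tested. With 12 to 33 members in 3 of 4 captures, counting error limits all values of single genes there.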
